A study of Mus musculus with 8 samples.

Results

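The genes described here encode 9 peptide hormones of the gut, Gcg, Gip, Pyy, Cck, Nts, Sct, Sst, Ghrl and Insl5, and the prohormone convertase Pcsk1. These 10 genes were chosen by symbol, and they are 10 of the 19505 named genes measured. Each was represented by 1 probe set of the 22206 on the array. Signal was measured on Affymetrix arrays in a 4 cm piece of ileum from each of 8 male mice of the KKAy strain, which is obese and diabetic and has the Ay allele of the agouti gene. All mice were 14 weeks old and 30 g per the labels and ate a diet with 45% of its energy as fat. The point in the study at which this age and weight hold is not given here. After 4 weeks on this diet, 4 mice received water and 4 received voglibose at 1 mg/kg, each once a day into the stomach for 8 weeks. Both groups share the strain, the sex and the fatty diet, and no lean or normally fed group was analysed here. Voglibose inhibits the brush border alpha-glucosidases that release glucose from starch and sucrose.

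Gut hormones are made by scattered enteroendocrine cells of the epithelium, whose hormone mix changes along the intestine. Cells of the duodenum and jejunum are known for GIP, the incretin peptide encoded by Gip, and for cholecystokinin (Cck), while cells of the ileum and colon are known for GLP-1 from proglucagon (Gcg), peptide YY (Pyy) and neurotensin (Nts). Each hormone is made as a longer precursor, and Pcsk1 cuts many of them, proglucagon among them, to yield the active peptides. Unabsorbed carbohydrate that reaches the lower intestine is known to release GLP-1 and peptide YY. The arrays measured transcripts in whole tissue, so fewer cells of a type and less RNA per cell cannot be told apart.

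The bases before the transcription starts of 5 of the genes are shown. Of these, Gcg, Nts, Gip and Cck ran with or against a list of markers of position along the intestine by Pearson's r after adjustment. By Spearman's rho 0 such relations passed, and 0 passed by r without water mouse 4 or without voglibose mouse 2. Pyy was low in the 2 mice lowest in markers of the distal ileum. Its relations to the marker lists were computed over the other 6 mice alone, so they do not measure this. They did not pass after adjustment. Ghrl, which was high in the same mice, is not shown. The sequences are from RefSeq (GRCm38.p6), 250 bases up to the start in each case, read 5′ to 3′ on the gene's strand. Their positions are chr2:62483654-62483903 for Gcg, chr11:102107833-102108082 for the first of 2 listed starts of Pyy, chr10:102490419-102490668 for Nts and chr9:121495695-121495944 for Cck, all on the minus strand, and chr11:96024295-96024544 for Gip on the plus strand. Capitals mark matches to the GATA core GATAA and the caudal core TTTAT (each on both strands) and the TATA box TATAAA (gene strand). Every TATA box match also holds a caudal core. The cyclic AMP response element TGACGTCA was searched on both strands too.
Gcg: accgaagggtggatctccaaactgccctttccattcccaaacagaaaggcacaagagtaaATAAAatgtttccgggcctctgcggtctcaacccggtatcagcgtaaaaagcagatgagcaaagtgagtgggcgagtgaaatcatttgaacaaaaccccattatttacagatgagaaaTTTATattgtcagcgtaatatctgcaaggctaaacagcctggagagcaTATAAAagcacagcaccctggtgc
Pyy: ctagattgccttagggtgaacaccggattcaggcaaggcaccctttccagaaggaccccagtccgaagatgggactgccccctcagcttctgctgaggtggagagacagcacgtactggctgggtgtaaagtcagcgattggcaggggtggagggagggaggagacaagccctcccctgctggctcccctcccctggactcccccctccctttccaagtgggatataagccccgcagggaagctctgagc
Nts: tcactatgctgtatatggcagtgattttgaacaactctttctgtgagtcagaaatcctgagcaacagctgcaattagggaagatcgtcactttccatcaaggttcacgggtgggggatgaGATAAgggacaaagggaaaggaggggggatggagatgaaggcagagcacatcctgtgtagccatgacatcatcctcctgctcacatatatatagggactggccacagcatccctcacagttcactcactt
Gip: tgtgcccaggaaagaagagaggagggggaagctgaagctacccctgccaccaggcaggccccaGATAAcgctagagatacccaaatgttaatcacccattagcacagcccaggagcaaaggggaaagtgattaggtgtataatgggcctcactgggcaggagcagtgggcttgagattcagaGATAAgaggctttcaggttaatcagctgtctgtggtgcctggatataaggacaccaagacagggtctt
Cck: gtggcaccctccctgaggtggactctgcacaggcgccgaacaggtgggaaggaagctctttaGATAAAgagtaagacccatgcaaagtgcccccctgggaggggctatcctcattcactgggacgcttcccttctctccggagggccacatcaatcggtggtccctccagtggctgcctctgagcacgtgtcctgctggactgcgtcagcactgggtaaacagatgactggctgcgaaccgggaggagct

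The Gip window held 2 GATA cores, 187 and 68 bases before the start, and no caudal core. GATA factors such as Gata4 mark the upper small intestine. The Gcg window held no GATA core and 3 caudal cores, 1 of them inside its TATA box. Caudal factors pattern the intestine. Nts held 1 GATA core, and in Cck 1 GATA core overlapped 1 caudal core. Neither Pyy start had a match to the 4 motifs. Insl5, a hormone gene of colonic L cells, held 3 GATA cores, 3 caudal cores and 1 TATA box at the second of its 2 listed starts. GATA cores were thus not confined to genes of the upper intestine. Sst held the cyclic AMP response element 48 bases before its start, and Pcsk1 held it 78 bases before its start. Of 32817 promoter windows of this length, 22.6% held the GATA core, 37.3% the caudal core, 7.6% the TATA box and 1.55% the cyclic AMP response element. All 10 genes had at least 1 window in the RefSeq table. A match is a run of letters and no evidence of binding.

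In that build the protein-coding genes lie as follows: Gcg at chr2:62474530-62483653, Gip at chr11:96024532-96030831, Pyy at chr11:102106676-102107832, Cck at chr9:121489824-121495694, Nts at chr10:102481756-102490418. The remaining genes are Sct at chr7:141278329-141279174, Sst at chr16:23889573-23891342, Ghrl at chr6:113716119-113719911, Insl5 at chr4:103017872-103027271 and Pcsk1 at chr13:75089420-75134861.

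**Figure D1:**
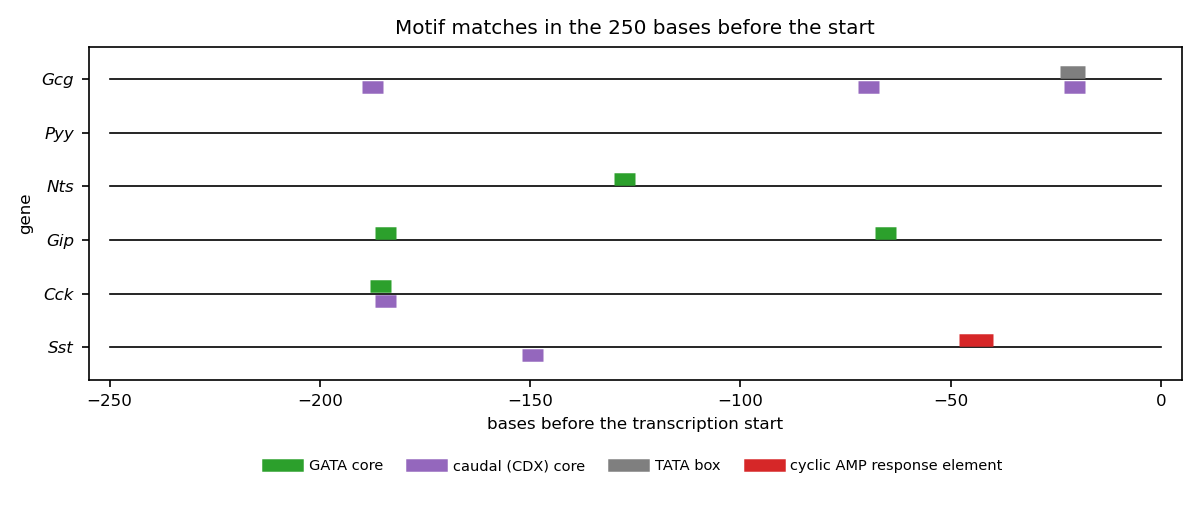
Matches to 4 motifs in the 250 bases before the transcription start of 6 hormone genes. The x axis gives bases before the start, each line is 1 gene, and each coloured block is 1 match. Gip has 2 GATA cores and Sst has the cyclic AMP response element.

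The 8 pieces of tissue differed in markers of position along the intestine. The ileal bile acid binding protein gene Fabp6 had log2 signals of 8.51, 17.50, 14.11 and 4.01 in water mice 1 to 4 and of 8.14, 3.54, 10.78 and 11.68 in voglibose mice 1 to 4. It lay at or below the lower quartile of the arrays (4.05 to 4.18) in water mouse 4 and voglibose mouse 2, and the bile acid transporter gene Slc10a2 was lowest in the same mice, at 5.69 and 6.12, near the medians of the arrays (5.89 to 5.94). Over 11 measured of 12 listed genes of the distal ileum, the summed log2 signal ran from 121 to 160 in water and from 119 to 141 in voglibose mice. A list of 12 genes of the upper small intestine ran the other way, with summed signals from 102 to 123 in water and from 110 to 121 in voglibose mice. These mice had the lowest signals of all 8 in 7 of the 11 distal genes and the highest in 5 of the 12 upper genes, among them the transcription factor gene Onecut2, at 6.94 and 6.12 against 4.12 to 4.75 in the others. Other genes of the upper list did not follow: Pdx1 was low in both (4.25 and 4.10), Ada was lowest in voglibose mouse 2 (14.24) and Cybrd1 in water mouse 4 (5.66). Voglibose mouse 2 also held signal of exocrine pancreas, with carboxypeptidase Cpa1 at 12.01 against 4.72 to 5.37 elsewhere. Insulin (Ins2), a product of pancreatic islets, was 4.99 in this mouse and 4.37 to 5.0 elsewhere. Water mouse 2, with the highest distal signal, had the highest mean of 8 smooth muscle genes, 1.53 above the mean of all mice on the log2 scale, and water mouse 4 the lowest, at -1.49. The summed log2 signal of these 8 genes ran from 85.5 to 110 in water and 94.8 to 104 in voglibose mice. That of 7 measured pancreas genes ran from 30.2 to 31.9 and from 30.3 to 59.0. That of 10 colon genes, of which 3 were higher and 7 lower in voglibose mice, ran from 71.4 to 81.0 and from 72.1 to 72.8. The part of these differences in the hormone results was not tested, and the group difference of each gene is also given without water mouse 4 and voglibose mouse 2.

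None of the 10 genes differed between voglibose and water mice in limma, adjusted by Benjamini-Hochberg over the whole array. The adjusted p ran from 0.759 to 0.997, and all 10 of the 95% intervals included 0. No probe set of the array passed that threshold (0.0%). At an unadjusted p under 0.05, 0 of the 10 genes were called, against 7.52% of all probe sets (3.08% higher and 4.44% lower in voglibose mice). The groups overlapped in all 10 genes, while they did not overlap in 4.35% of all probe sets. In 7 genes the voglibose mean was the higher and in 3 the lower, with a median log2 difference of 0.12 against -0.005 over the array. The exact permutation p of single genes, over 70 arrangements of the mice with a smallest possible p of 0.0286, ran from 0.286 to 0.971.

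**Figure D2:**
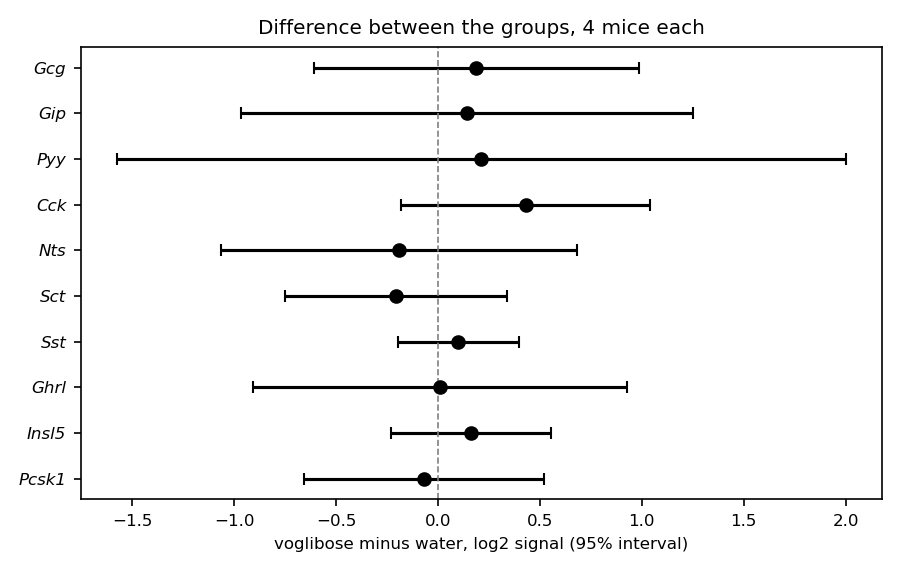
Difference in log2 signal between 4 voglibose and 4 water mice for each gene (x axis), with its 95% interval from limma. All 10 intervals cross 0, and that of Pyy, from -1.57 to 2.00, is the widest.

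Gcg, the proglucagon gene, had log2 signals of 11.88, 12.57, 11.91 and 11.14 in water mice 1 to 4 and of 12.20, 11.08, 12.14 and 12.83 in voglibose mice 1 to 4. The lowest signal of each group came from a mouse low in distal markers, water mouse 4 and voglibose mouse 2, and the groups overlapped over nearly their whole range. The group means were 11.88 ± 0.58 and 12.06 ± 0.73 (SD, n = 4), a difference of 0.19 ± 0.36 (SE) on the log2 scale. Without both mice low in distal markers the log2 difference was 0.27 ± 0.25, without voglibose mouse 2 alone 0.51, without water mouse 4 alone -0.06 and without voglibose mouse 4 -0.068. With the mean of the distal list as a covariate, taken from the same arrays, the log2 difference of Gcg was 0.49 ± 0.22, with an unadjusted p of 0.044 and an adjusted p of 0.554 from limma.

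Pyy, whose peptide slows gut transit and curbs appetite, had log2 signals of 10.97, 11.73, 11.31 and 8.44 in water mice and of 11.13, 8.50, 12.16 and 11.51 in voglibose mice, each in the order of mice 1 to 4. The gene thus fell into 2 clusters, 1 low mouse in each group and 6 high mice, separated by 2.47 on the log2 scale. From the lowest to the highest mouse the signal rose 13.2-fold, and 99.7% of all probe sets varied less between mice. The group difference of 0.21 ± 0.81 (SE) was small beside that spread. Without both low mice it was 0.26 ± 0.29, but it was 0.99 without voglibose mouse 2 alone and -0.51 without water mouse 4 alone, -0.23 without voglibose mouse 3 and -0.016 without voglibose mouse 4. With the distal list as a covariate it was 0.93 ± 0.43 (unadjusted p = 0.0508, adjusted p = 0.555, limma).

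Nts encodes neurotensin, a peptide of ileal N cells. Its log2 signals were 13.41, 13.86, 13.64 and 12.80 in water mice and 13.09, 11.99, 13.89 and 13.97 in voglibose mice 1 to 4. Voglibose mouse 2 was lowest, water mouse 4 the lowest of the other 7, and the remaining 6 lay between 13.09 and 13.97. The difference of -0.19 ± 0.40 (SE) became 0.013 without both mice and 0.22 without voglibose mouse 2.

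Gip, the incretin gene of K cells, was high in the mice in which Gcg, Pyy and Nts were lowest. Its relations to these genes over the mice, given below, did not pass after adjustment. Its log2 signals were 10.45, 9.36, 10.76 and 11.74 in water mice and 10.84, 11.71, 9.52 and 10.80 in voglibose mice 1 to 4. Water mouse 4 and voglibose mouse 2 were now the highest, while water mouse 2 and voglibose mouse 3 were the lowest. The difference between the groups was 0.14 ± 0.50 (SE), and it turned to -0.27 without water mouse 2, to -0.19 without voglibose mouse 2 and to -0.29 with the distal list as a covariate. Without both mice low in distal markers it was 0.20 ± 0.42.

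Cck encodes cholecystokinin, which triggers gall bladder contraction and pancreatic secretion. It was measured at 7.88, 7.27, 7.96 and 8.67 in water mice and 8.25, 8.92, 8.12 and 8.21 in voglibose mice (log2 signal, mice 1 to 4). The same 2 mice were highest, and 3 of 4 water mice lay below all voglibose mice. The difference of 0.43 ± 0.28 (SE; unadjusted p = 0.15, adjusted p = 0.759, limma) was the largest of the 10 genes. It was 0.49 without both mice low in distal markers (unadjusted p = 0.0421, adjusted p = 0.919), 0.67 without water mouse 4 (unadjusted p = 0.0184, adjusted p = 0.773), 0.25 without voglibose mouse 2, 0.21 without water mouse 2 and 0.19 with the distal list as a covariate.

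Ghrl, the gene of the appetite hormone ghrelin, known mainly from the stomach, had log2 signals of 7.35, 6.77, 7.57 and 8.56 in water mice and 6.71, 8.63, 7.48 and 7.47 in voglibose mice 1 to 4. Here too water mouse 4 and voglibose mouse 2 stood apart, 0.99 above the next mouse. The group means were 7.56 and 7.57, and the difference was -0.01 without both mice, -0.34 without voglibose mouse 2, 0.34 without water mouse 4, 0.30 without voglibose mouse 1 -0.25 without water mouse 2 and -0.061 without water mouse 1. Of 8 stomach markers, 0 had a mean above the median of the array, and the gastric mucin Muc5ac lay between 3.02 and 3.59. In single mice some were brighter: Gkn2 reached 6.28 in water mouse 2 and Atp4a 6.05 in water mouse 4, above the array medians (5.89 to 5.94). Cblif was highest in voglibose mouse 2 (4.99). For 0 of the 8 markers were water mouse 4 and voglibose mouse 2 together the 2 highest mice. The part of stomach signal in Ghrl was not tested. Mboat4, the acyltransferase that activates ghrelin, was at 3.05 to 3.84, under the arrays' lower quartile.

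Sst, whose product somatostatin restrains the release of other hormones, was the steadiest member. Its log2 signals were 11.89, 12.03, 12.13 and 12.27 in water mice and 12.16, 12.14, 12.23 and 12.19 in voglibose mice 1 to 4. The whole range was 0.38, and only 3.63% of all probe sets had a smaller SD than its 0.12. The difference was 0.10 ± 0.14 (SE), with a 95% interval from -0.20 to 0.40, 0.04 without water mouse 1 and 0.18 ± 0.16 without both mice low in distal markers. Somatostatin is also made by enteric neurons. The neuronal gene Elavl4, picked after its value was seen, differed by -0.15 ± 0.22. Of 10 measured enteric neuron and glia markers, 5 were higher and 5 lower in voglibose mice, and their part in the Sst signal was not tested.

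Sct encodes secretin, which stimulates bicarbonate secretion by the pancreas. Its log2 signals fell into a lower set of 3 mice (7.17 to 7.22: water mouse 1 and voglibose mice 1 and 2) and a higher set of 5 (7.74 to 8.13). These sets did not match the mice low in distal markers, since water mouse 4 stood in the higher one. The difference was -0.20 ± 0.25 (SE), and -0.09 without voglibose mouse 1, -0.08 without voglibose mouse 2, -0.08 without water mouse 3, -0.083 without both mice low in distal markers, -0.36 without voglibose mouse 4 and -0.39 without water mouse 1.

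Pcsk1, the convertase, had log2 signals of 6.71, 6.32, 6.20 and 7.21 in water mice and 6.30, 6.07, 6.65 and 7.14 in voglibose mice 1 to 4. It was highest in water mouse 4 and voglibose mouse 4 and lowest in voglibose mouse 2, so the 2 mice low in distal markers were at opposite ends. Its difference was -0.07 ± 0.27 (SE), 0.29 ± 0.24 without those mice, and 0.01 without voglibose mouse 1, 0.087 without voglibose mouse 2 and 0.13 without water mouse 4. Insl5, a hormone of colonic L cells, lay between 3.15 and 3.89 in all 8 mice, under the lower quartile of each array, and its difference of 0.16 ± 0.18 (SE) is one between dim signals. It was 0.02 ± 0.20 without both mice low in distal markers.

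**Figure D3:**
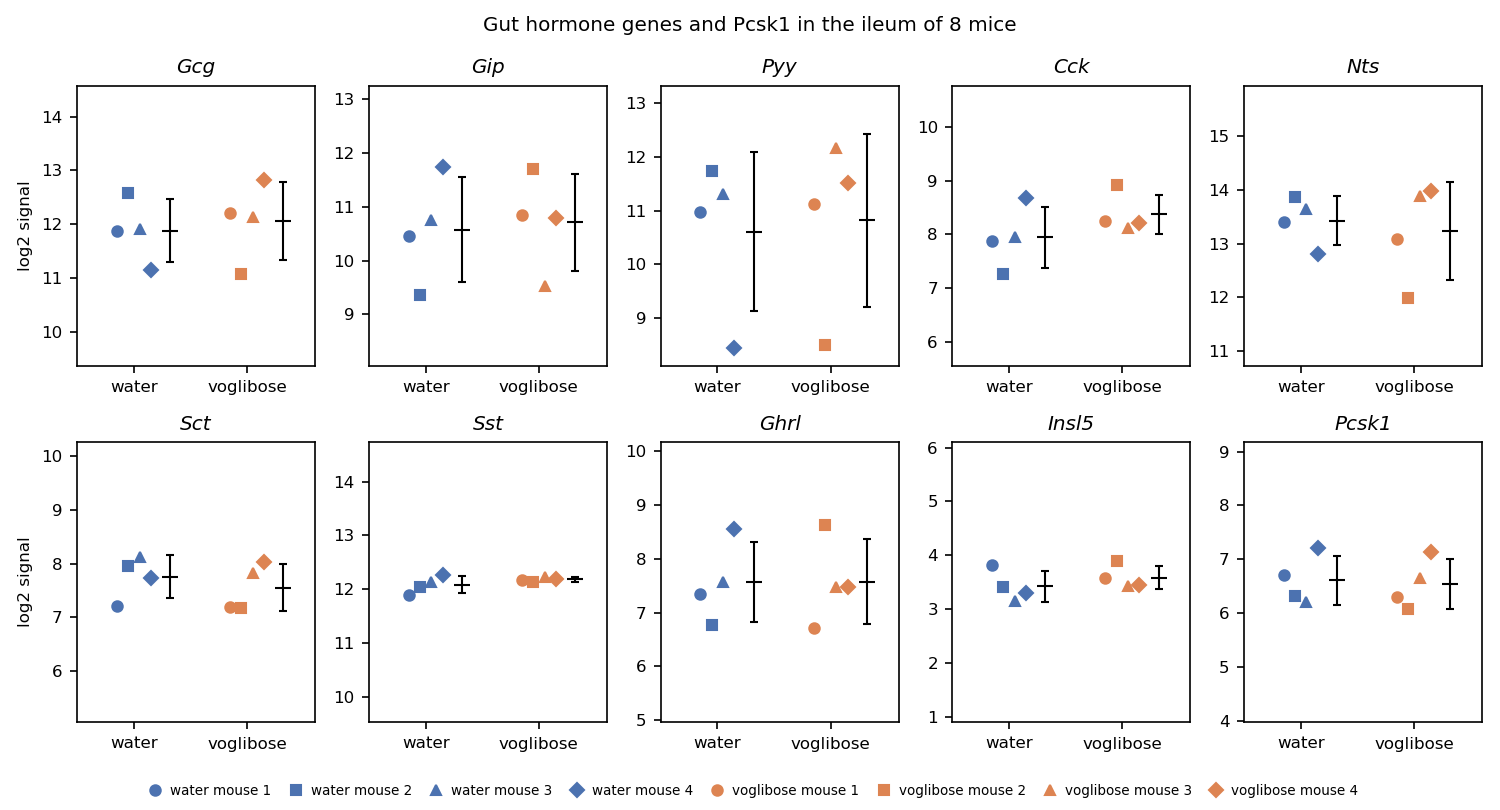
Log2 signal of the 10 genes (y axis, same span in every panel) in 4 water and 4 voglibose mice. Each point is 1 mouse and the bar beside it gives the group mean ± SD. Water mouse 4 and voglibose mouse 2 are the low points of Pyy and the high points of Gip and Ghrl.

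The hormone genes were then related to each other over the mice. Of 45 pairs, 36 had a value, 21 over all 8 mice and 15 over 6. Pyy and Ghrl fell into clusters of 6 and 2 mice, so r was computed within the 6 alone, and Sct, split into 3 and 5, had none. No pair passed after adjustment over the 36 (smallest adjusted p = 0.154 for Pearson's r and 0.164 for Spearman's rho, exact 2-sided permutation), and 5 pairs had an unadjusted p under 0.05 by r and 2 by rho. Some of this pattern was known from an earlier look at these arrays, so it is no independent evidence.

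The highest r was that of Gcg with Nts (r = 0.854, exact permutation p = 0.00427, adjusted p = 0.154; rho = 0.81, p = 0.0218, adjusted p = 0.392; n = 8). Gip and Cck followed (r = 0.851, exact permutation p = 0.0093, adjusted p = 0.167; rho = 0.905, p = 0.00456, adjusted p = 0.164). The relations between these sets were negative: r was -0.779 for Gip with Nts, -0.777 for Cck with Nts, -0.71 for Gcg with Cck and -0.694 for Gcg with Gip, with an exact permutation p of 0.0218, 0.0255, 0.0452 and 0.0533 and an adjusted p of 0.229, 0.229, 0.32 and 0.32. Their rho was -0.69, -0.595, -0.452 and -0.5, with an exact permutation p of 0.0694, 0.132, 0.267 and 0.216 and an adjusted p of 0.74, 0.769, 0.769 and 0.769.

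Leaving out the 2 mice farthest from the median of the first gene moved r to 0.544 for Gcg with Nts, 0.956 for Gip with Cck, -0.791 for Gip with Nts, -0.602 for Cck with Nts, -0.115 for Gcg with Cck and -0.129 for Gcg with Gip. The last 2 relations therefore rest on the mice left out, water mouse 4 and voglibose mouse 2, and without the same mice that of Gcg with Nts had an exact permutation p of 0.265. Without these mice r was 0.651 for Gip with Cck, -0.498 for Gip with Nts and -0.277 for Cck with Nts. With each group's mean removed, r was 0.901 for Gcg with Nts, 0.916 for Gip with Cck and -0.894 for Gcg with Cck (adjusted p = 0.0746, 0.0746 and 0.0896, exact permutation). Within 1 group there were 4 mice, too few for an r.

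Over the 6 mice of its upper cluster, Pyy gave r = 0.743 with Nts (exact permutation p = 0.0931, adjusted p = 0.45; rho = 0.771, p = 0.103, adjusted p = 0.74) and r = -0.751 with Gip (exact permutation p = 0.1, adjusted p = 0.45; rho = -0.543, p = 0.297, adjusted p = 0.769). With 2 more mice left out these were 0.848 and 0.674, over 4 mice and so under the minimum of 6 used here for an r, and nothing is read from them. Pcsk1 had r between 0.116 and 0.449 with the other hormones named so far, leaving out Insl5 and Sct, and its r with Gcg, its substrate's gene, was 0.116 (exact permutation p = 0.789; n = 8). That value rests on single mice: it was 0.655 without water mouse 4, -0.225 without voglibose mouse 2, -0.263 without voglibose mouse 4 and 0.498 without both mice low in distal markers. The r of Pcsk1 also changed sign with Gip (-0.236) and Cck (-0.151) without water mouse 4 and with Nts (-0.189) without voglibose mouse 2.

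**Figure D4:**
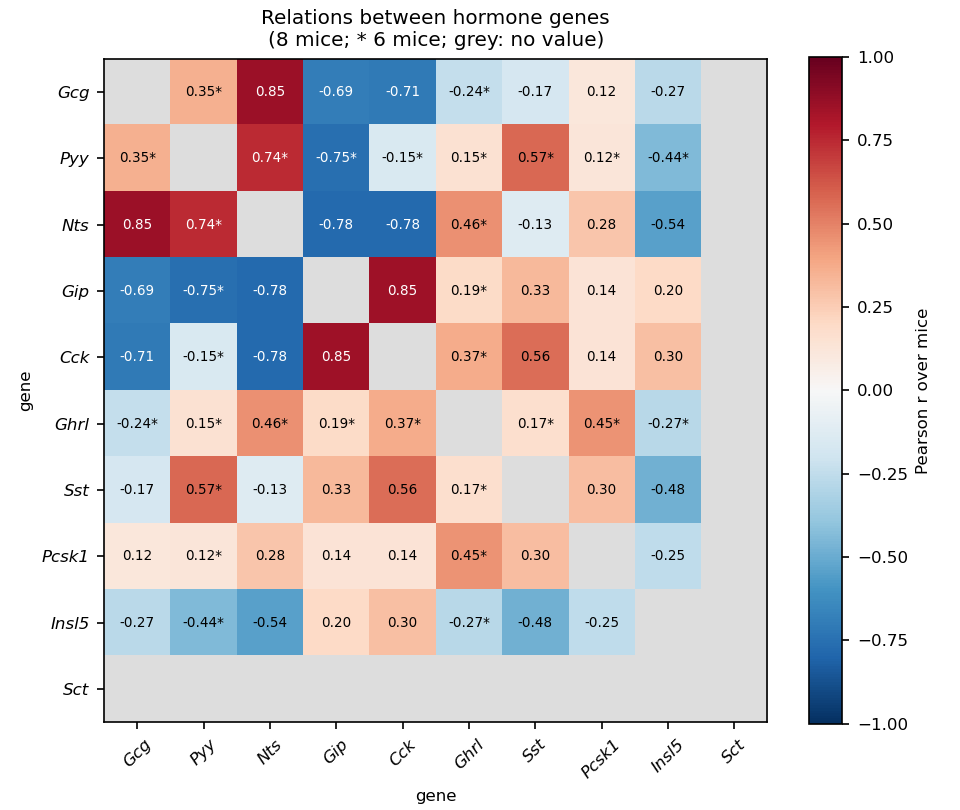
Pearson r between hormone genes over mice, in colour from -1 to 1 with the value printed. Values with an asterisk are over 6 mice, the others over 8, and grey cells have no value. Gcg with Nts (0.854) and Gip with Cck (0.851) are the highest.

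Against the regional lists, by the sign of r, Gip and Cck stood on the side of the upper intestine and Gcg and Nts on the distal side. These lists were chosen with earlier results known, and 18 of 20 relations of a hormone to a list mean had a value. By Pearson's r 6 passed after adjustment over the 18, and by Spearman's rho 0 did (smallest adjusted p = 0.0653, with 7 at an unadjusted p under 0.05). Gcg with the distal list did not pass (r = 0.779, exact permutation p = 0.0226, adjusted p = 0.0561; rho = 0.714, p = 0.0576). Nor did Nts with the upper list (r = -0.775, exact permutation p = 0.025, adjusted p = 0.0561; rho = -0.857, p = 0.0107). Gip followed the list of the upper intestine with r = 0.923 (exact permutation p = 0.00169, adjusted p = 0.0176; rho = 0.833, p = 0.0154; n = 8) and Cck opposed the distal list with r = -0.926 (exact permutation p = 0.00196, adjusted p = 0.0176; rho = -0.833, p = 0.0154).

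The other relations that passed had an adjusted p of 0.0323 each (exact permutation, n = 8): Cck with the upper list (r = 0.874, p = 0.00781; rho = 0.667, p = 0.0831), Gip with the distal list (r = -0.842, p = 0.00955; rho = -0.786, p = 0.0279), Nts with the distal list (r = 0.831, p = 0.00962; rho = 0.81, p = 0.0218) and Gcg with the upper list (r = -0.837, p = 0.0108; rho = -0.81, p = 0.0218). Without the 2 mice at the extremes of the list, r was 0.86 for Gip and 0.66 for Cck with the upper list, -0.747 for Cck, -0.634 for Gip and 0.895 for Nts with the distal list, and -0.835 for Gcg with the upper list. Without water mouse 4, without voglibose mouse 2 or without both, 0 relations passed after adjustment, and without water mouse 2, voglibose mouse 1 or water mouse 1 it was 1, 2 and 3. With the group means removed 7 passed. Over 6 mice Pyy opposed the upper list in rank (rho = -0.943, exact permutation p = 0.0167, adjusted p = 0.0653; r = -0.653, p = 0.161, adjusted p = 0.322). The relations of Sst and Pcsk1 to both lists lay between -0.31 and 0.319 in r over 8 mice, and single mice moved them. For Sst they were -0.638 with the distal and 0.622 with the upper list without water mouse 1, and -0.119 and 0.0691 without water mouse 4. For Pcsk1 they were -0.545 and 0.458 without voglibose mouse 2 and 0.165 and -0.266 without water mouse 4.

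**Figure D5:**
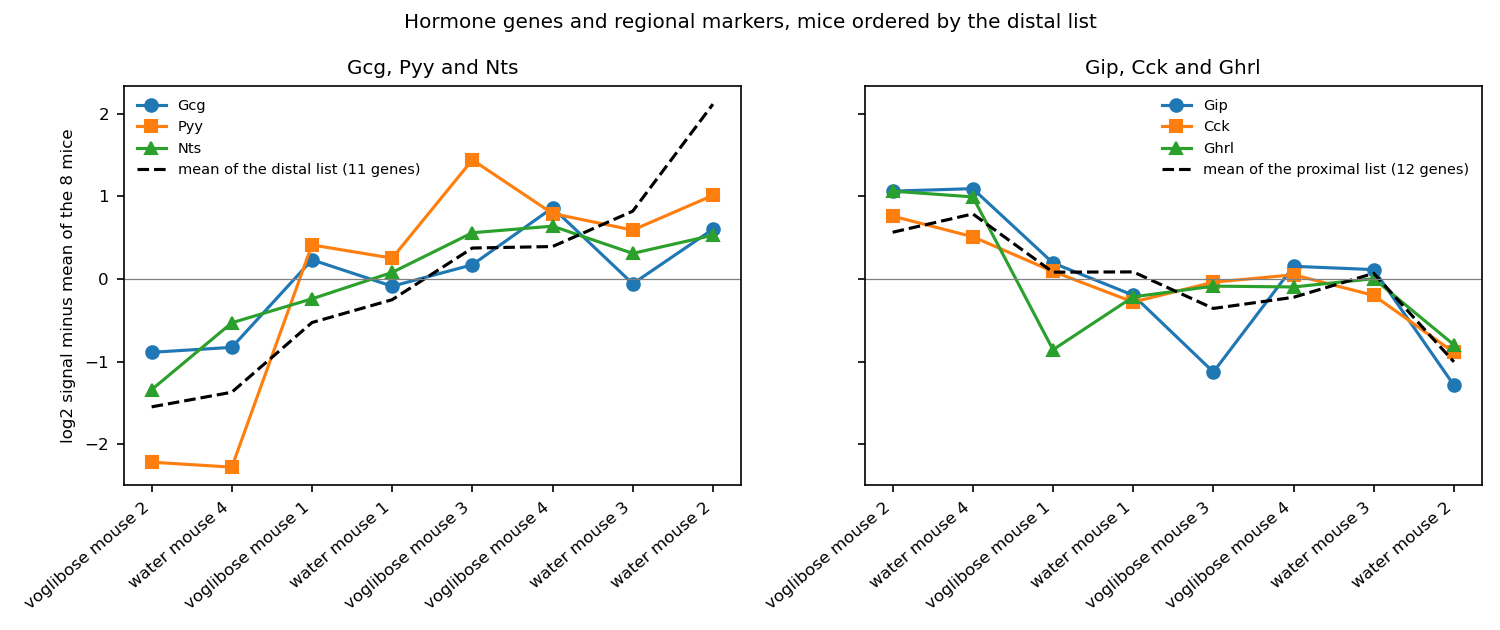
Log2 signal minus the mean of the 8 mice (y axis) for 6 hormone genes, with mice ordered along the x axis by the mean of the distal list. Dashed lines give the mean of 11 distal genes (left) and of 12 genes of the upper intestine (right). Gcg, Pyy and Nts are lowest, and Gip, Cck and Ghrl highest, in voglibose mouse 2 and water mouse 4.

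For the 6 members with an SD over 0.5, the genes with the most similar profile over the 8 mice were found among 10018 named probe sets above the median signal, by the root mean square distance between mean-centred log2 profiles. For Gcg these were Ulbp1, Gm609 and Pglyrp1 (0.16, 0.17 and 0.19). Gip lay closest to Cd7, a surface protein of lymphocytes (0.15), Dao (0.26) and Got1 (0.30). Pyy lay closest to Slc34a2, an intestinal phosphate transporter (0.35), Gsdme (0.46) and Naaladl1 (0.47). The nearest to Cck were the fatty acid transporter Cd36, Slc35f2 and Ahcyl1 (0.12, 0.13 and 0.15), those to Nts were Sytl2, Gm1123 and Nipal2 (0.18, 0.19 and 0.20), and those to Ghrl were Ncoa7, Arl15 and Irf1 (0.23, 0.27 and 0.27). Slc34a2, for instance, had 13.64 in water mouse 4 and 13.07 in voglibose mouse 2 and 15.30 to 16.48 in the others, the same split as Pyy. It was chosen for its likeness to Pyy over the same mice, so nothing is read from the shared split.

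In the other steps of hormone production no gene passed the test over all probe sets, so the values that follow are those with the smallest p in each list. Chga, Chgb, Scg2, Tph1 and Glp2r were added after their values were seen. Each count at an unadjusted p under 0.05 is to be read against 7.52% of all probe sets (3.08% higher and 4.44% lower), and each pair of groups without overlap against 4.35%. Of 12 measured prohormone processing genes, 1 was higher and 1 lower at an unadjusted p under 0.05 (16.7%, against 7.52% of the array). Furin, a convertase of the secretory pathway, was at 7.89 to 8.21 in water and 8.26 to 8.52 in voglibose mice, without overlap (0.36 ± 0.14, SE; adjusted p = 0.658, limma). Qpct, which forms the pyroglutamate end of neurotensin and other peptides, differed by -0.71 ± 0.30 (adjusted p = 0.659) and was lowest in voglibose mouse 2, at 6.42. Pcsk5 and Cpd differed by 0.39 ± 0.22 and 0.29 ± 0.17.

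Of 21 granule and secretion genes, 1 was higher at an unadjusted p under 0.05, the granule membrane protein gene Ptprn (0.42 ± 0.17, adjusted p = 0.658, limma), and 0 were lower (4.76%, against 7.52% of the array). Rab3a, Snap25 and Kcnj11 differed by 0.28 ± 0.13, -0.32 ± 0.16 and 0.26 ± 0.15. Kcnj11 was dim, at 2.77 to 3.45, under the lower quartile of the arrays. Chga, the granule protein chromogranin A made by most enteroendocrine cells, lay between 8.06 and 8.67 over all mice, an SD of 0.21 against 1.44 for Pyy and 0.88 for Gip. Other granule proteins varied more: Chgb, chromogranin B, was highest in water mouse 4 (8.90), and Scg2, secretogranin II, was highest in water mouse 2 (10.53) and lowest in voglibose mouse 2 (8.73), with an SD of 0.54.

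Lineage factors and serotonin genes of enteroendocrine cells gave 2 of 18 higher and 0 lower at an unadjusted p under 0.05 (11.1%, against 3.08% of the array for higher and 7.52% in all). Lmx1a, a factor of serotonin-making cells, was at 5.44 to 6.19 in water and 6.30 to 6.92 in voglibose mice (0.66 ± 0.21; adjusted p = 0.652, limma), and the vesicular transporter Slc18a1 differed by 0.54 ± 0.24. Rfx6, a factor needed for hormone expression in these cells, was at 6.24 to 7.17 and 7.22 to 7.37 (0.44 ± 0.20), and Insm1 differed by -0.25 ± 0.13. Tph1, the enzyme that makes serotonin in the same cells, differed in the other direction, by -0.37 ± 0.26.

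Among 20 other gut peptide genes, 1 was higher and 1 lower at an unadjusted p under 0.05 (10%, against 7.52% of the array). Vip, a peptide of enteric neurons, had 8.73, 9.46, 8.92 and 9.26 in water mice and 7.95, 8.54, 7.80 and 8.72 in voglibose mice 1 to 4. All voglibose mice lay below all water mice, by 0.01 at the nearest, and the difference of -0.84 ± 0.24 (SE) had an adjusted p of 0.652 (limma). Of 10 measured enteric neuron and glia markers, 5 were higher and 5 lower, with 0 at an unadjusted p under 0.05, and their part in the Vip difference was not tested. The gene higher at that p was Nmb, neuromedin B (0.42 ± 0.14), whose groups did not overlap either (4.35% of the array). Ppy (0.36 ± 0.21) and Tac1 (-0.27 ± 0.18) were the next, and the means of Nmb and Ppy lay under the lower quartile of the arrays.

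Hormone receptors were dim, with 1 of 19 above the median of the array, the GLP-2 receptor Glp2r at 7.84. The somatostatin receptor Sstr3 was the only one of them at an unadjusted p under 0.05 (0.43 ± 0.18; adjusted p = 0.658, limma; 5.26% of the list, against 7.52% of the array), and Gipr, Npy1r and Ntsr2 differed by 0.28 ± 0.14, -0.45 ± 0.25 and 0.33 ± 0.18. Peptidases that break down gut hormones were all above the median, and 0 of 10 were called at an unadjusted p under 0.05. Dpp4, which inactivates GLP-1 and GIP, differed by -0.26 ± 0.18, Enpep by -0.19 ± 0.13, Ace by 0.44 ± 0.40 and Mep1b by 0.08 ± 0.13.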

How the data were processed

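The deposited values are log2 signals, 1 per probe set; RMA and the Transcriptome Analysis Console were used per the submitters' processing notes, without versions. The log2 scale was read from the values (2.09 to 19.55, array medians 5.89 to 5.94). The array's genome build is not given in the sources used here. RMA evens out the arrays, so a change in total RNA would not be seen, and differences of dim genes come out too small. The number of arrays limits the precision.

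All 22206 probe sets were tested with limma 3.58.1 in R 4.3.3 (lmFit, eBayes, 2-sided, threshold 0.05, Benjamini-Hochberg over all probe sets, 11.1 total degrees of freedom), with no filter. The p-values measure the spread between mice. Labels name no batch. The code was tested on simulated data. Symbols (19572 probe sets) came from the platform annotation, and RefSeq (GRCm38.p6) gave gene positions and promoters.

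Relations used Pearson's r and Spearman's rho with exact permutation of pairings. A gene whose largest gap between sorted values exceeded 0.5 of its range was treated as clustered, and at least 6 mice were required. Figures used matplotlib 3.10.9 in Python 3.11.15. The genes, the 13 other lists and all rules were chosen with earlier results of these data known. Named genes are all 10 members, up to 4 with the smallest p per list and 3 profile neighbours per member with an SD over 0.5. Other named genes, among them Chga, Chgb, Scg2, Tph1, Mboat4, Glp2r, Elavl4 and the markers given for single mice, were picked after their values were seen. Alternatives were other moderation, normalization and filtering, a replicate block, left-out mice and a regional covariate.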

Additional observations from a re-analysis of the deposited data

Results flagged for a closer look

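In the groups of 4 mice, the highest or lowest value of a gene was far from the other 3 in 21 cases by Dixon's test at 95%, which sets the gap to the nearest other value against the range. The test was run on 350 groups, the water and the voglibose mice for each of the 175 genes of the hormone and other lists (6%). Chance flags about 1 in 20 groups, and the genes of a list are not independent and were listed with earlier results known, so nothing is read from that share. Among the hormones it was Cck, with 8.92 in voglibose mouse 2 against 8.12 to 8.25 in the other 3 voglibose mice.

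In the same mouse the exocrine pancreas genes Cpa1, Prss2 and Ctrb1 were far above the other voglibose mice, at 12.01, 10.77 and 11.17. Onecut2 (6.12) and Cblif, the gene of gastric intrinsic factor (4.99), were also far above them, and Clec2h (17.44) was below. In water mouse 2, Lct, the lactase gene, was 12.39, Ace 14.71 and Rfx6 6.24, each far below the other 3 water mice, while Retnlb, a gene of goblet cells of the lower gut, was 7.80 and Scg2 10.53, far above them. Water mouse 4 was far below the other water mice in Vamp2 (7.95) and Muc4 (5.21) and far above them in Ide (12.31). The other cases were Mnx1 (3.06, lowest) in water mouse 3, Hoxb13 (3.42, highest) in voglibose mouse 1, Cacna1d (4.74, highest) and Penk (5.74, highest) in voglibose mouse 3, and Ide (12.42, highest) and Scnn1b (4.50, highest) in voglibose mouse 4. Mnx1 and Hoxb13 were dim, under the lower quartile of the arrays in all mice.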

How the results depend on the processing

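With 4 mice per group, log2 differences anywhere within the 95% intervals (for Pyy -1.57 to 2.00) were not excluded. Insl5 was too dim to measure a change. No probe set passed the adjusted threshold in the main comparison or in 16 other fits. Among the 10 genes, the count at an unadjusted p under 0.05 ran from 0 to 1 when single mice were left out (Cck, without water mouse 4), and was 1 without both mice low in distal markers (Cck) and 1 with the distal list as a covariate (Gcg). Leaving out 1 mouse, the log2 differences ran from -0.068 to 0.51 for Gcg, -0.27 to 0.54 for Gip, -0.51 to 0.99 for Pyy, 0.21 to 0.67 for Cck, -0.44 to 0.22 for Nts, -0.39 to -0.077 for Sct, 0.037 to 0.16 for Sst, -0.34 to 0.34 for Ghrl, 0.06 to 0.30 for Insl5 and -0.27 to 0.13 for Pcsk1. Without both mice, Nts was 0.013, Ghrl -0.01 and Pcsk1 0.29, each with its sign changed, and Sct was -0.083, Sst 0.18 and Insl5 0.02, each with its sign kept. With the distal list as a covariate, Gip was -0.29, Nts 0.13 and Ghrl -0.29, also with changed signs. The causes of these changes were not tested. The count of all probe sets at an unadjusted p under 0.05 was 1671 and ran from 969 (without voglibose mouse 1) to 1906 with single mice left out, and was 1019 after the filter on dim probe sets, where 11333 were tested. The share lower in voglibose mice was 987 of 1671 as reported and 798 of 1580 after a further quantile normalization.

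Hormone pairs past the adjusted threshold numbered 0 as reported, by rho, with group means removed, after quantile normalization and without both mice, a choice made after seeing the data, and 0 to 1 with single mice left out. The 1 pair was Gcg with Nts (r = 0.895) without voglibose mouse 1 and Gip with Cck (r = 0.977) without voglibose mouse 3. The r of Gip with Pyy was 0.674, with the opposite sign, without the 2 mice farthest from the median, but over 4 mice, under the minimum of 6, so no direction is read from it. Relations to the regional lists that passed numbered 0 to 7 with single mice left out. Relations over 6 mice were not refitted with a mouse left out, and using all probe sets of a gene was not an alternative, since each gene had 1.

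The replicate numbers of the labels were not taken to pair the mice: the deviations of mice with the same number correlated at 0.015, -0.324, 0.0141 and -0.184. With the replicate block in the fit the count of probe sets at an unadjusted p under 0.05 was 1529, the adjusted count stayed at 0, and 0 of the 10 genes were called.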

Other observations

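Other genes of the hormone lists varied between mice more than between groups. Glp1r, the GLP-1 receptor, had log2 signals of 5.59, 3.75, 5.61 and 6.03 in water mice and 5.52, 5.77, 5.31 and 5.93 in voglibose mice 1 to 4, so that water mouse 2 alone was under the lower quartile. Chgb, the granule protein chromogranin B, was lowest in the same mouse (7.14) and highest in water mouse 4 (8.90), with 7.72 to 8.08 in the other 6. Cpe, the carboxypeptidase that trims prohormones after cutting, was highest in water mouse 2 (8.59) and lowest in water mouse 4 (6.4). Gata4, the transcription factor of the upper small intestine, was 9.41 in water mouse 2, 12.13 in water mouse 4 and 12.24 in voglibose mouse 2, and 10.65 to 11.75 in the others. The genes of this paragraph were picked after their values were seen and have no test.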
